A study of Mus musculus with 6 samples.

Results

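The genes described here are the TGF-beta ligands Tgfb1, Tgfb2 and Tgfb3, their receptors Tgfbr1, Tgfbr2 and Tgfbr3, the bone morphogenetic protein (BMP) ligands Bmp2, Bmp4 and Bmp7, and follistatin (Fst), a secreted inhibitor that is neither ligand nor receptor. They were chosen by symbol. Each of the 10 had exactly 1 probe set paired with its symbol alone, out of 19938 symbols with such a probe set. RNA came from the whole cornea of 3-day-old mice, hybridised to Affymetrix Mouse Gene 1.0 ST arrays (3 wild-type (WT) samples and 3 samples of K14-DN-Clim littermates). The transgene expresses a dominant-negative form of CLIM, a cofactor that binds LIM-domain transcription regulators, from the keratin 14 promoter, which is active in the basal cells of stratified epithelia. The stroma, vessels and endothelium of the cornea are therefore not the cells in which the promoter is known to act. The labels give no other allele or agent, and they do not say whether a replicate was 1 pup or a pool. The spread behind the p-values below may therefore be technical in part.

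TGF-beta ligands are secreted in a latent form, are held in the matrix by latent TGF-beta binding proteins, and signal through a type 2 receptor (Tgfbr2) that activates a type 1 receptor (Tgfbr1). Betaglycan (Tgfbr3) is a co-receptor that presents ligand, above all TGF-beta 2. The activated receptors phosphorylate Smad2 and Smad3, whereas BMP receptors act through Smad1, Smad5 and Smad9, and both branches share Smad4. In the cornea TGF-beta is known for its part in stromal matrix production and the change of keratocytes into myofibroblasts, and BMP4 and BMP7 are known for their part in early eye development.

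Values are log2(intensity + 16), and differences are DN-Clim minus WT, so that a difference of -1 is close to a halving of intensity and changes of dim genes are understated. Some markers of the labelled tissue were bright on every array. The basal keratin Krt5 lay between 12.38 and 12.88 and Krt14 between 11.30 and 12.26. The corneal keratin Krt12 lay between 11.04 and 11.95, and the stromal proteoglycan Kera between 11.96 and 13.09. Other markers of the cornea were dim. The stromal marker Angptl7 ranged from 7.15 to 8.58, and Slc4a11 of the corneal endothelium ranged from 6.68 to 8.11. Their means over the 6 arrays, 7.93 for Angptl7 and 7.63 for Slc4a11, were below the median of every array (7.95 to 8.21). Of the 8 epithelial markers 7 had differences below 0, and Krt5 and Krt14 read lower on each DN-Clim array than on any WT array (differences of -0.31 and -0.63). Aldh3a1, an abundant corneal enzyme, differed by -1.09, with 8.33 and 8.48 on DN-Clim replicates 1 and 2, and replicate 3 within the WT range of 9.98 to 10.06. None of these 3 genes passed limma's test with all arrays, whereas Krt14 (-0.81, limma adjusted p = 0.0471) and Aldh3a1 (-1.62, adjusted p = 0.00446) fell without DN-Clim replicate 3. The mean of the 8 was 10.64, 10.31 and 10.98 on DN-Clim replicates 1, 2 and 3 against 10.85 to 11.17 in WT. The 3 DN-Clim arrays were not alike in the markers of other tissue. The mean of 10 lens markers was 11.31 and 11.63 on DN-Clim replicates 1 and 2, against 8.44 on DN-Clim replicate 3 and 8.59 to 9.03 on the WT arrays, although the labels state that non-corneal tissue was removed and that markers of adjacent tissue were absent. The mean of 9 keratocyte and stromal markers was 10.21 and 9.72 on the same 2 arrays, against 11.34 on DN-Clim replicate 3 and 11.15 to 11.52 in WT, and all 9 were below their WT mean on both. The 4 measured retinal markers had means of 9.13 and 9.54 on these 2 arrays, 8.10 on DN-Clim replicate 3 and 7.66 to 8.37 in WT. DN-Clim replicate 3 stood apart in other lists, with a skeletal muscle mean of 9.36 (8.64 and 8.14 on DN-Clim replicates 1 and 2, 7.87 to 8.39 in WT) and a pigment cell mean of 8.04 (8.88 to 9.59 in WT). The 7 blood vessel markers had means of 7.92 to 8.26 in DN-Clim and 8.92 to 9.19 in WT. The 5 pericyte and smooth muscle markers had means of 8.03 to 8.47 in DN-Clim and 8.91 to 9.34 in WT. The 6 macrophage markers had means of 7.57 to 7.82 and 8.16 to 8.40. The means of these 3 lists were thus lower on all 3 DN-Clim arrays, but their genes differed widely. On DN-Clim replicate 3 they ran from Emcn (-2.22) to Erg (0.03) for vessels, relative to the WT mean. For pericytes they ran from Rgs5 (-1.99) to Cspg4 (0.47) and for macrophages from Mrc1 (-1.70) to C1qa (0.04). In the fit of all arrays, 6 of the 7 vessel, 5 of the 5 pericyte and 6 of the 6 macrophage markers had differences below 0. The exception was the vessel marker Kdr, with a difference of 0.39. Relative to its WT mean, Kdr was at 0.27, 1.13 and -0.23 on DN-Clim replicates 1, 2 and 3. The values carry no detection calls, and no marker was at 0. In RNA of whole corneas, fewer cells of a type and less RNA per cell cannot be told apart. Each of the 10 genes is therefore given array by array, with DN-Clim replicates 1 and 2 against WT, and with DN-Clim replicate 3 alone. The last of these sets 1 array against the 3 WT arrays. Its SE and p-values rest on the spread of WT alone, assume that the lone array varies like WT, and compare that array, not the genotype.

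None of the 10 genes passed the adjusted threshold of 0.05 in limma's test of 3 DN-Clim against 3 WT arrays, and 3 of them, all lower in DN-Clim, had an unadjusted p under 0.05. Over all 23410 probe sets tested, 0.0128% passed the adjusted threshold, and 4.49% were lower with an unadjusted p under 0.05. The largest difference was in Tgfb3, followed by Tgfbr2 and Fst. For 2 of the 10, Tgfb3 and Tgfbr2, every DN-Clim array lay below every WT array, and no gene of the 10 lay above on every array. The groups did not overlap for 10.1% of all probe sets, 6.95% with DN-Clim lower. Of the 10 differences 7 were below 0, with a median of -0.30, beside 57.2% of all probe sets below 0 and a median of -0.04.

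**Figure D1:**
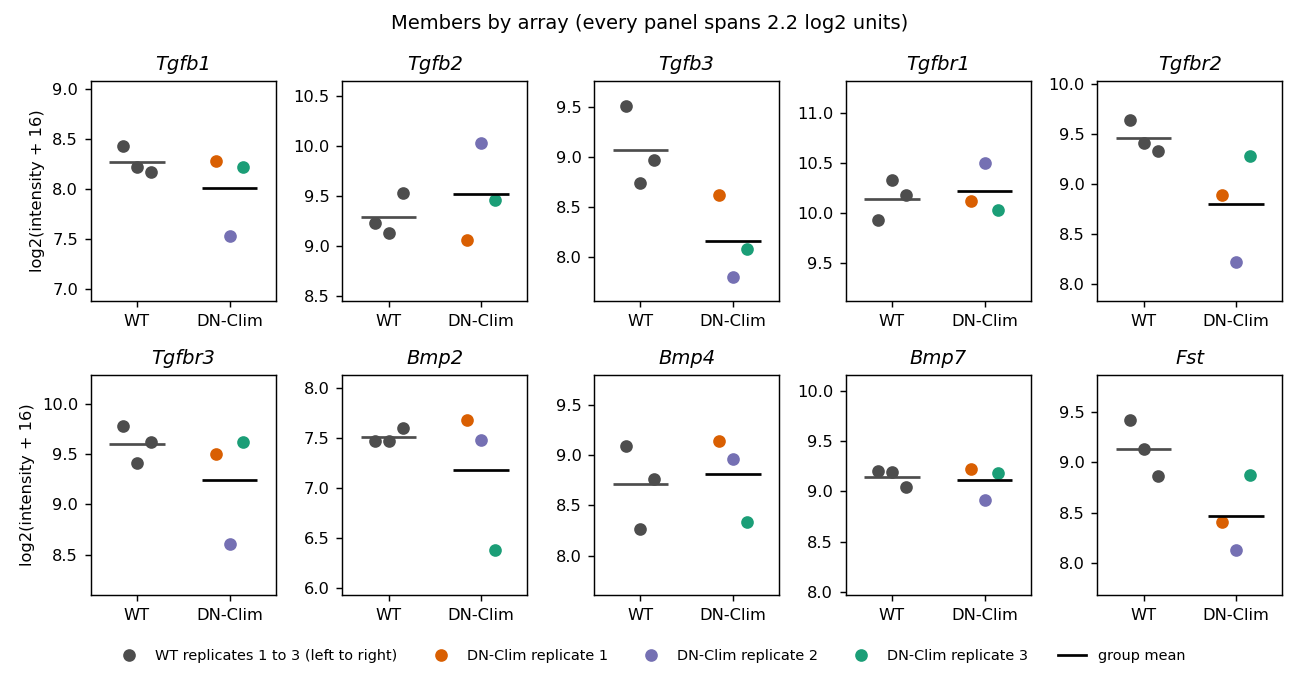
Each panel plots 1 gene as log2(intensity + 16) on the 6 arrays, with grey points for WT replicates 1 to 3, coloured points for DN-Clim replicates 1, 2 and 3, and lines for the group means. Tgfb3 and Tgfbr2 have no overlap between the groups, the Bmp2 mean in DN-Clim rests on replicate 3, and the values of Bmp7 span 0.31.

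Among the ligands, Tgfb3, the TGF-beta form best known for palate fusion, read 9.51, 8.74 and 8.97 on WT replicates 1, 2 and 3 and 8.62, 7.80 and 8.08 on DN-Clim replicates 1, 2 and 3. All 3 DN-Clim arrays were below the lowest WT array, replicates 2 and 3 by the most and replicate 1 by little. The means were 9.07 ± 0.39 (SD, n = 3) in WT and 8.16 ± 0.42 (SD, n = 3) in DN-Clim, a difference of -0.91 (SE 0.274, 95% interval -1.52 to -0.29), and this did not pass (limma unadjusted p = 0.00875, adjusted p = 0.69). On this scale the DN-Clim mean was 0.53 times the WT mean. The difference was -0.86 (limma adjusted p = 0.172) with DN-Clim replicates 1 and 2 and -0.99 with DN-Clim replicate 3 alone (adjusted p = 0.162, with the error from WT only). With each of the 6 arrays left out in turn it ran from -1.13 to -0.69, and with array weights, which favour DN-Clim replicate 1, it was -0.45. The means of the vessel, pericyte and macrophage lists were also below the WT range on all 3 DN-Clim arrays, though not every gene was. Relative to the WT mean they were at -0.87, -1.13 and -0.79 for vessels, -0.60, -1.04 and -0.72 for pericytes and -0.44, -0.69 and -0.61 for macrophages. Their part in the Tgfb3 result was not tested.

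Tgfb1, the form most studied in wound healing and fibrosis, read 8.43, 8.22 and 8.17 in WT against 8.28, 7.53 and 8.22 in DN-Clim. DN-Clim replicates 1 and 3 lay within the WT range and only replicate 2 lay below it. The difference was -0.26 (SE 0.235, 95% interval -0.79 to 0.27, limma adjusted p = 0.999). It was -0.37 with DN-Clim replicates 1 and 2, -0.05 with replicate 3 alone and -0.02 without DN-Clim replicate 2. Tgfb2, the main TGF-beta of the aqueous humour, read 9.23, 9.13 and 9.53 on the WT arrays, compared with 9.06, 10.03 and 9.46 on the DN-Clim arrays. Its DN-Clim arrays lay below, above and within the WT range. The difference of 0.23 (SE 0.259, 95% interval -0.36 to 0.81, adjusted p = 0.999) was 0.25 with DN-Clim replicates 1 and 2, 0.17 with replicate 3 alone and -0.03 without DN-Clim replicate 2. That array, which had the highest lens mean, held both the lowest Tgfb1 and the highest Tgfb2 value of the 6, and the part of the lens signal in this was not tested.

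The receptor Tgfbr2, the kinase that binds the ligand first, read 9.64, 9.41 and 9.33 in WT against 8.89, 8.22 and 9.28 in DN-Clim. There was no overlap, although DN-Clim replicate 3 was only just under the lowest WT array. Means were 9.46 ± 0.16 (SD, n = 3) and 8.80 ± 0.53 (SD, n = 3), a difference of -0.66 (SE 0.269, 95% interval -1.27 to -0.05, limma unadjusted p = 0.0358, adjusted p = 0.819). It was -0.90 (SE 0.223, adjusted p = 0.0865) with DN-Clim replicates 1 and 2 and -0.18 (SE 0.201, adjusted p = 0.644) with replicate 3 alone. Without DN-Clim replicate 2 it was -0.37. For Tgfbr2, DN-Clim replicate 2 was lowest and replicate 3 highest. The stromal marker mean had the same order, at -1.14, -1.62 and 0.00 relative to WT on replicates 1, 2 and 3. So did the epithelial mean (-0.37, -0.70 and -0.04) and the vessel mean (-0.87, -1.13 and -0.79). The array medians also had this order, at 8.03, 7.95 and 8.21. Other lists did not. The pericyte mean (-0.60, -1.04 and -0.72) and the macrophage mean (-0.44, -0.69 and -0.61) were lowest on replicate 2 but highest on replicate 1. The corneal endothelial mean was level on replicates 1 and 2 (-0.48, -0.48 and 0.23). The part of any of these in the Tgfbr2 result was not tested. Tgfbr2 passed in 1 of the 16 alternatives, with array weights (-0.60, adjusted p = 0.043), which gave DN-Clim replicate 1 a weight of 3.055 and replicate 3 a weight of 0.199.

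The other receptors overlapped between the groups. Tgfbr1, the kinase partner of Tgfbr2, read 9.93, 10.33 and 10.18 on the WT arrays, compared with 10.12, 10.50 and 10.03 on the DN-Clim arrays, with a difference of 0.08 (SE 0.205, 95% interval -0.39 to 0.54, limma adjusted p = 0.999). It was 0.17 with DN-Clim replicates 1 and 2 and -0.11 with replicate 3 alone, and leaving out WT replicate 1 (-0.03) or DN-Clim replicate 2 (-0.07) turned its sign as well. Tgfbr3, betaglycan, read 9.78, 9.41 and 9.62 in WT against 9.50, 8.61 and 9.62 in DN-Clim, so that only DN-Clim replicate 2 lay outside the WT range. The difference was -0.36 (SE 0.276, 95% interval -0.98 to 0.26, adjusted p = 0.999). It was -0.55 with DN-Clim replicates 1 and 2, 0.02 with replicate 3 alone and -0.04 without DN-Clim replicate 2.

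The promoters of Tgfb1, Tgfb2 and Tgfbr2 are shown because, of the 5 genes of the set with an entry in the RefSeq promoter table (Tgfb1, Tgfb2, Tgfbr1, Tgfbr2 and Bmp4), Tgfbr2 is the one whose groups did not overlap and the other 2 are its ligands. Each is the 250 bases before the transcription start in GRCm38.p6, 5′ to 3′ on the gene's strand, with capitals for a GC box (GGGCGG, either strand) or for CAGAC, the core of a Smad binding element (either strand). Tgfb1 lies at chr7:25686752-25687001 on the plus strand, Tgfb2 at chr1:186705990-186706239 on the minus strand and Tgfbr2 at chr9:116175364-116175613 on the minus strand.
Tgfb1: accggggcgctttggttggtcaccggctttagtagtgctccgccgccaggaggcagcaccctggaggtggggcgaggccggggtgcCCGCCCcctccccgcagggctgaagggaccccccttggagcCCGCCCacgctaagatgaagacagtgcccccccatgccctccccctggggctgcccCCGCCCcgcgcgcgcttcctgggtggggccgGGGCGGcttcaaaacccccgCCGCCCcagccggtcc
Tgfb2: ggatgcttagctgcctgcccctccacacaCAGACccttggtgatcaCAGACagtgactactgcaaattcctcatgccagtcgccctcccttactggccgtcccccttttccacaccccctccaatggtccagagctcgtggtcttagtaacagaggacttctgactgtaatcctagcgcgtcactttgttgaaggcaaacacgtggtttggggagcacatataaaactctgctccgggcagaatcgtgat
Tgfbr2: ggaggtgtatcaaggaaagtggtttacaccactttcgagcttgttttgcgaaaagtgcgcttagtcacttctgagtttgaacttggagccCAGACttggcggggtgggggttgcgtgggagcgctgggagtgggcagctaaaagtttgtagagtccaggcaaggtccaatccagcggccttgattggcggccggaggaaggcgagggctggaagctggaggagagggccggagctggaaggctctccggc
The Tgfb1 window held 5 GC boxes and no CAGAC, the Tgfb2 window 0 GC boxes and 2 CAGAC, and the Tgfbr2 window 0 GC boxes and 1 CAGAC. Of all 32851 promoter windows of the same length, 32.7% held a GC box and 42.2% held CAGAC. The letters TAATTA, a core bound by LIM homeodomain factors, which are partners of CLIM, were found in 0 of the 6 windows of these 5 genes and in 4.84% of all windows. The match of letters is a description of these windows, and these arrays do not measure binding.

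Of the BMP ligands, Bmp2, an inducer of bone and of many embryonic tissues, read 7.47, 7.47 and 7.60 on the WT arrays, compared with 7.68, 7.48 and 6.38 on the DN-Clim arrays. The WT arrays and DN-Clim replicates 1 and 2 lay close together and DN-Clim replicate 3 lay far below. Bmp2 was the dimmest of the 10 genes and lay below the median of every array (7.95 to 8.21). The difference over all arrays was -0.33 (SE 0.315, 95% interval -1.04 to 0.38, limma adjusted p = 0.999). This difference depended on the offset, at -0.38 with an offset of 1 and -0.23 with an offset of 64. It was 0.07 (SE 0.156, adjusted p = 0.8) with DN-Clim replicates 1 and 2 and -1.13 with replicate 3 alone (SE 0.182, adjusted p = 0.0657, both from the spread of WT only). The mean of 6 pigment cell markers was also low on that array, at 8.04 against 8.88 to 9.59 in WT. It was 9.83 on DN-Clim replicate 1 and 9.72 on replicate 2. The skeletal muscle mean was high on the same array, as given above. The part of either list in the Bmp2 value was not tested.

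Bmp4, the BMP known in early eye and lens induction, read 9.09, 8.27 and 8.76 in WT against 9.14, 8.96 and 8.34 in DN-Clim, a spread within each group far above the difference of 0.10 (SE 0.277, 95% interval -0.52 to 0.73, limma adjusted p = 0.999). It was 0.34 with DN-Clim replicates 1 and 2 and -0.37 with replicate 3 alone, opposite in sign, and was below 0 when WT replicate 2 (-0.11) or DN-Clim replicate 1 (-0.06) was left out. Bmp7, which with Bmp4 acts in eye formation, read 9.20, 9.19 and 9.04 on the WT arrays, compared with 9.22, 8.91 and 9.18 on the DN-Clim arrays, with the smallest range of the 10 genes. Its difference was -0.04 (SE 0.180, 95% interval -0.44 to 0.37, adjusted p = 0.999). It was -0.08 with DN-Clim replicates 1 and 2, 0.04 with replicate 3 alone, 0.06 without DN-Clim replicate 2 and 0.03 with each array centred on its median.

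Follistatin binds activins and some BMPs and keeps them from their receptors. Fst read 9.42, 9.13 and 8.86 in WT against 8.41, 8.13 and 8.87 in DN-Clim, so that DN-Clim replicates 1 and 2 lay below all WT arrays and replicate 3 was level with WT replicate 3. Means were 9.13 ± 0.28 (SD, n = 3) and 8.47 ± 0.37 (SD, n = 3), a difference of -0.66 (SE 0.243, 95% interval -1.21 to -0.12, limma unadjusted p = 0.0227, adjusted p = 0.788). With DN-Clim replicates 1 and 2 it was -0.86 (SE 0.204, adjusted p = 0.0784) and with replicate 3 alone -0.26 (SE 0.243, adjusted p = 0.571). As for Tgfbr2, the low arrays were those with low stromal and epithelial means, a low array median and the lens signal, whose part was not tested. Of the 16 alternatives, Fst passed with array weights alone (-0.72, adjusted p = 0.023).

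**Figure D2:**
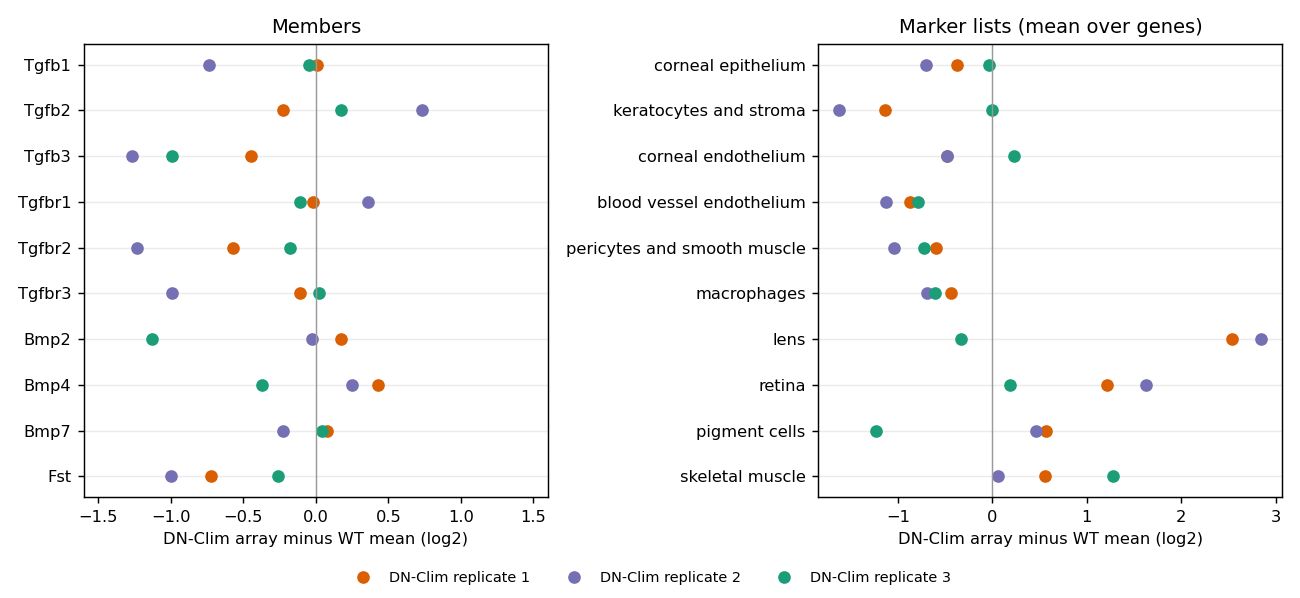
The left panel plots each gene on each DN-Clim array minus the WT mean in log2 units, and the right panel does the same for the mean of each marker list. Tgfb3, Tgfbr2 and Fst and the epithelial, vessel, pericyte and macrophage lists are below 0 on all 3 arrays, whereas the stromal list is below 0 on replicates 1 and 2 and at 0.00 on replicate 3.

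Read array by array, DN-Clim replicate 1 had 4 of the 10 genes below the WT range (Tgfb2, Tgfb3, Tgfbr2 and Fst) and 3 above it (Bmp2, Bmp4 and Bmp7). Over all probe sets that array had 38.8% below and 23.1% above. DN-Clim replicate 2 had 6 below (Tgfb1, Tgfb3, Tgfbr2, Tgfbr3, Bmp7 and Fst) and 2 above (Tgfb2 and Tgfbr1), where 50% and 27.2% of all probe sets lay. DN-Clim replicate 3 had 3 below (Tgfb3, Tgfbr2 and Bmp2) and 0 above, where 28.2% and 39.8% of all probe sets lay. Only Tgfb3 and Tgfbr2 were below on every array. The medians of the 10 genes relative to the WT mean were -0.06, -0.49 and -0.14 on the 3 arrays, beside -0.07, -0.16 and 0.06 for all probe sets. In limma's fit of DN-Clim replicates 1 and 2 against WT, 0 of the 10 passed and 3 had an unadjusted p under 0.05, all lower (Tgfb3, Tgfbr2 and Fst), where 1.52% of all probe sets passed as lower and 13% were lower with an unadjusted p under 0.05. With DN-Clim replicate 3 alone, a fit of 1 array whose error comes from WT only, 0 passed and 2 had an unadjusted p under 0.05 (Tgfb3 and Bmp2, both lower). Of all probe sets 0.337% passed there and 8.12% were lower with an unadjusted p under 0.05.

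**Figure D3:**
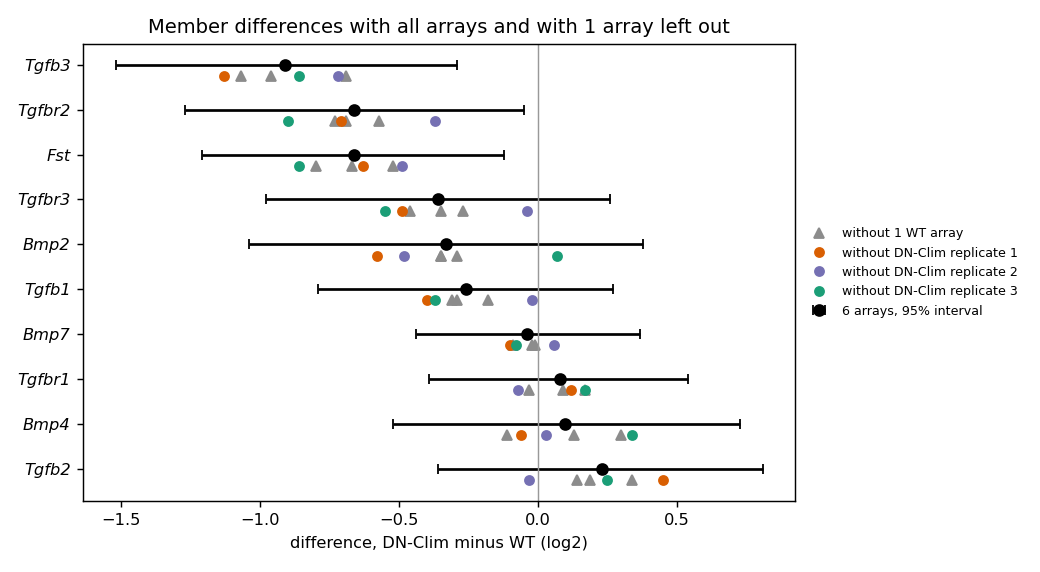
Black points are the DN-Clim minus WT differences in log2 units with limma's 95% intervals, and the smaller points below them are the differences with 1 array left out (grey triangles, a WT array; coloured circles, a DN-Clim array). Tgfb3, Tgfbr2 and Fst stay below 0 in every such fit, from -1.13 to -0.69, from -0.90 to -0.37 and from -0.86 to -0.49. Tgfb1 (-0.40 to -0.02) and Tgfbr3 (-0.55 to -0.04) do so as well, but come close to 0.

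For the 4 genes with the widest range over the 6 arrays, the probe sets of other genes with the most similar pattern were listed by Pearson r among the candidate probe sets with 1 symbol and a mean log2 value of at least 7 (17365 for each gene). The pattern of Tgfb3 was closest to Capns1, a calpain subunit (r = 0.998), Prss32 and Mknk2. That of Tgfbr2 was closest to Ahnak, a very large scaffold protein (r = 0.997), S100a16 and Upk3bl. That of Bmp2 was closest to Bri3 (r = 0.997), Gpnmb, a glycoprotein of pigment cells and macrophages, and Haus8, and that of Fst to Snap23 (r = 0.996), Lrrc17 and Hmcn1. These are the highest of many values over 6 arrays that share their groups, their scaling and the lens signal. The number of probe sets with r over 0.9 was 190 for Tgfb3, 286 for Bmp2, 745 for Fst and 959 for Tgfbr2.

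Around these 10 genes, 93 of 96 further genes of the pathway were measured. With all 6 arrays 0 passed in limma's test, 10 were lower and 1 (Acvr1b) was higher with an unadjusted p under 0.05 (4.49% and 1.45% of all probe sets), and the median difference was -0.11. The groups did not overlap for 5 of the 93 genes with DN-Clim lower and for 2 with DN-Clim higher, where 6.95% and 3.2% of all probe sets lay. Without DN-Clim replicate 3, 8 of the 93 passed limma's adjusted threshold as lower and 0 as higher, with a median of -0.22. Of all probe sets 1.52% passed as lower and 0.547% as higher, with a median of -0.12. With an unadjusted p under 0.05, 24 of the 93 were lower and 5 higher, where 3049 and 1781 of all 23410 probe sets lay. With DN-Clim replicate 3 alone 0 passed (error from WT only) and the median was -0.01. The 8 genes passed with the pair of DN-Clim arrays that had low stromal and epithelial means and a lens signal, whose part was not tested. Which array to leave out was chosen with its values known, and the p-values take no account of this.

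The TGF-beta responsive genes had the most negative median of the 7 pathway lists, -0.60 over 14 measured genes, with 12 below 0 and 7 lower with an unadjusted p under 0.05 (57.2% and 4.49% of all probe sets). Acta2, the smooth muscle actin of myofibroblasts and vessel walls, read 10.37, 11.23 and 10.24 on the WT arrays, compared with 9.59, 8.70 and 9.19 on the DN-Clim arrays (limma difference -1.45, SE 0.313, adjusted p = 0.498). It was below every WT array on all 3 DN-Clim arrays, as were Col3a1, a fibrillar collagen, and Postn, a matricellular protein. Col3a1 read 11.73, 11.47 and 11.04 in WT against 9.79, 9.20 and 10.80 in DN-Clim (-1.48, SE 0.373, adjusted p = 0.612). Postn read 12.27, 11.51 and 12.28 on the WT arrays, compared with 10.56, 9.25 and 11.43 on the DN-Clim arrays (-1.61, SE 0.479, adjusted p = 0.681). Without DN-Clim replicate 3, 4 of the 14 passed limma's adjusted threshold, all lower (1.52% of all probe sets passed as lower). They were Col3a1 (-1.92, adjusted p = 0.0125), Postn (-2.12, adjusted p = 0.0378), Col1a2 (-1.57, adjusted p = 0.0277) and Fn1 (-1.36, adjusted p = 0.0263). With an unadjusted p under 0.05, 10 of the 14 were lower and 1 was higher, where 3049 and 1781 of all 23410 probe sets lay. On DN-Clim replicate 3 Col1a2 and Fn1 were at 0.02 and 0.05 relative to the WT mean. Col1a1 and Col3a1 are also in the stromal marker list and Acta2 is in the pericyte list, so that these lists are not separate measurements.

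The BMP responsive genes had a median of 0.00 over 8 genes, 4 on either side of 0, and 0 with an unadjusted p under 0.05. The inhibitors of differentiation Id1 and Id2 differed by -0.36 (SE 0.207) and -0.34 (SE 0.359) and Id4 by 0.46 (SE 0.386), with limma adjusted p-values of 0.942 for Id1 and 0.999 for the others. Id4 read 9.12, 9.34 and 7.82 on the 3 DN-Clim arrays, replicate 3 being the low one, against 8.02 to 8.76 in WT.

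The genes that hold TGF-beta latent or activate it had a median of -0.22 over 11 genes, 9 of them below 0. Ltbp1, which tethers latent TGF-beta to the matrix, read 11.02, 10.97 and 10.55 in WT against 9.57, 9.18 and 11.01 in DN-Clim, so that replicates 1 and 2 were low and replicate 3 was at the WT level. Its difference of -0.93 (limma adjusted p = 0.845) was -1.47 (SE 0.207, adjusted p = 0.0159) without DN-Clim replicate 3, where it passed. Ltbp4 differed by -0.61 and Thbs1, a matrix protein that can activate latent TGF-beta, by -0.57 with all arrays (adjusted p = 0.859 and 0.897), and both by -0.80 without DN-Clim replicate 3.

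Of the 24 measured inhibitors 16 were below 0, with a median of -0.08. Bmper, a secreted regulator of BMPs, read 9.68, 9.65 and 9.09 on the WT arrays, compared with 8.37, 7.29 and 9.19 on the DN-Clim arrays. Fstl1, a follistatin-like protein of mesenchymal cells, read 12.23, 11.87 and 11.28 in WT against 10.10, 9.97 and 11.72 in DN-Clim. For both, DN-Clim replicate 3 lay within the WT range and the other 2 arrays below it. With all arrays they differed by -1.19 and -1.20 (limma adjusted p = 0.767 and 0.788), and without DN-Clim replicate 3 they fell by 1.64 (adjusted p = 0.047) and by 1.76 (adjusted p = 0.0193). Ski, a repressor of Smads, differed by -0.41 (SE 0.249), and by -0.26 without DN-Clim replicate 3.

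Of the 17 other ligands measured, 9 were below 0 and 8 above, with a median of 0.00. Bmp3, a BMP that opposes bone formation, read 8.95, 9.23 and 8.59 on the WT arrays, compared with 7.82, 7.28 and 9.10 on the DN-Clim arrays, and it fell without DN-Clim replicate 3 (-1.37, SE 0.239, limma adjusted p = 0.0317). Gdf10 and Inha, the inhibin alpha chain, differed by -0.36 and -0.28 with all arrays (adjusted p = 0.933 and 0.968). Of the 13 other receptors and co-receptors 11 were below 0, with a median of -0.17. The BMP and activin receptor Acvr1 differed by -0.69 (SE 0.300) and the co-receptor Tdgf1 by -0.60 (SE 0.275), and by -0.99 and -0.84 without DN-Clim replicate 3. The activin receptor Acvr1b read 8.06, 7.50 and 8.39 in WT against 8.60, 8.48 and 8.48 in DN-Clim, a difference of 0.54 (SE 0.239, adjusted p = 0.836) with every DN-Clim array above every WT array, as for 3.2% of all probe sets. The 6 Smads that transmit the signal had a median of 0.05, with 3 on either side of 0. Smad3 differed by -0.32 (SE 0.234), Smad2 by 0.25 (SE 0.262) and Smad4 by 0.15 (SE 0.186), all with adjusted p = 0.999. Without DN-Clim replicate 3 they differed by -0.37, 0.50 and 0.26.

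**Figure D4:**
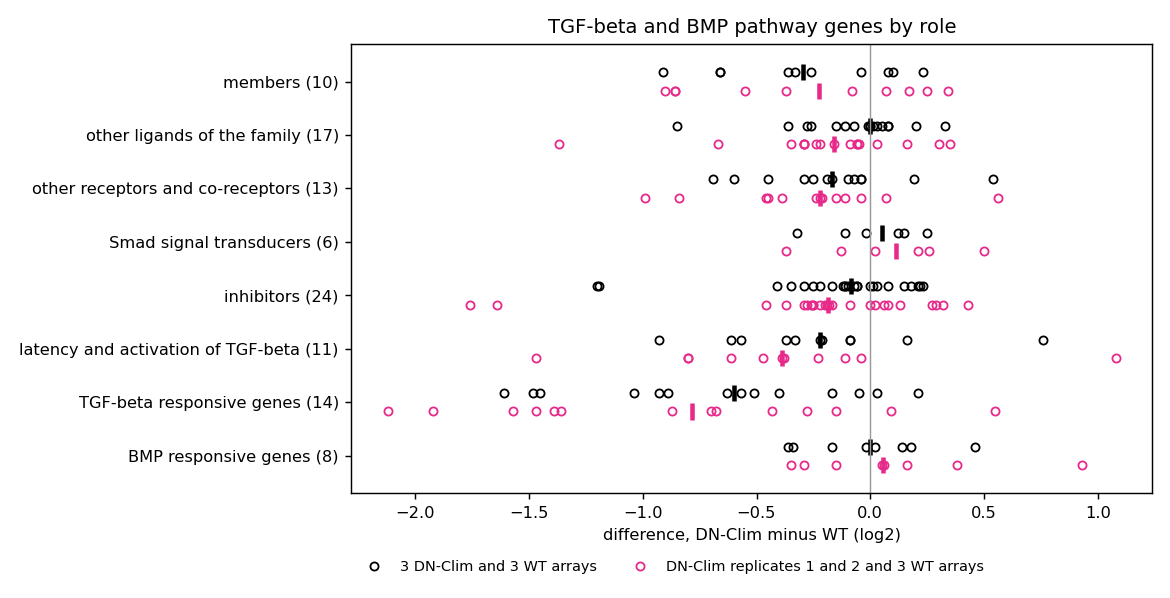
Each circle is 1 gene's DN-Clim minus WT difference in log2 units, by role in the pathway with the number of genes in brackets, for all 6 arrays (black) and for DN-Clim replicates 1 and 2 against WT (pink), and bars are list medians. The TGF-beta responsive genes have the most negative median, -0.60 with all arrays and -0.78 without DN-Clim replicate 3.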

How the data were processed

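Per the submitters' processing notes, the deposited values are probe set intensities made with Affymetrix Expression Console 1.1 and PLIER. How background was corrected and arrays were normalized is not given in the sources used here. In all, 35557 probe sets were deposited. Intensities were taken as log2(intensity + 16) with no further normalization, since array medians differed by 0.267 at most. The number of arrays limits the precision. The 23410 probe sets that the platform annotation pairs with at least 1 gene were fitted by group (DN-Clim minus WT) with lmFit and eBayes of limma 3.58.1 (R 4.3.3) and adjusted by Benjamini-Hochberg over all of them, with a threshold of 0.05. The script was tested on simulated data.

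Genes were matched by symbol to probe sets with only that symbol, and the brightest was used where there were several. The 10 genes, the pathway and marker lists and the naming rule were chosen with earlier results of these data known. By that rule the 10 genes were always named, with up to 3 genes of the smallest p per pathway list (and 1 of the largest difference), up to 2 of the brightest genes per marker list, and 3 genes of the most similar pattern for the 4 members of the widest range, predicted loci skipped. Genes that passed only without DN-Clim replicate 3 (Fn1, Col1a2) were added after their values were seen. So were the markers Krt12, Aldh3a1, Emcn, Cspg4, C1qa, Angptl7 and Slc4a11. Promoters come from a RefSeq table of GRCm38.p6. Alternatives were offsets of 1 and 64, quantile normalization, median centring, a minimum mean, all probe sets, array weights, a block for the replicate number, a prior that was trended and robust, each array left out and DN-Clim replicate 3 alone.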

Additional observations from a re-analysis of the deposited data

How the results depend on the processing

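Each of the 10 genes was refitted under 16 alternatives. Of these 160 values, 142 had the same sign and call as with the main settings, 2 passed where the main value did not, and 16 had the opposite sign. No gene had a second probe set to try. The count of probe sets past the threshold, 3 with all arrays, was 1 with quantile normalization, 0 over all probe sets of the table, 5 with a trended robust prior, 2059 with array weights, 9 with the replicate block and 79 with DN-Clim replicate 3 alone (error from WT only), and 0 to 483 with 1 array left out. Array weights also moved the members called from 0 to 2 and the pathway genes called from 0 to 15; with 1 array left out the latter ran from 0 to 8. These weights were estimated gene by gene, because limma's default estimate did not converge, giving DN-Clim replicate 1 a weight of 34.9 and calls for 9004 probe sets and 3 members (Tgfbr2 -0.55, Bmp4 0.58, Fst -0.71). Signs that turned were Bmp7 with median centring (0.03), Tgfb2 (-0.06), Tgfbr1 (-0.05), Bmp2 (0.09) and Bmp7 (0.03) with array weights, and Tgfbr1 (-0.11), Tgfbr3 (0.02), Bmp4 (-0.37) and Bmp7 (0.04) with DN-Clim replicate 3 alone. With 1 array left out, Tgfb2 ran from -0.03 to 0.45, Tgfbr1 from -0.07 to 0.17, Bmp2 from -0.58 to 0.07, Bmp4 from -0.11 to 0.34 and Bmp7 from -0.10 to 0.06. The cause of these shifts was not tested. Deviations of same-numbered arrays from their group means correlated at 0.017, -0.206 and -0.436. Those of arrays with unlike numbers correlated at -0.277 to 0.452. Deviations within a group of 3 arrays sum to 0, so these values cannot settle whether the replicate numbers pair the arrays. With the replicate block 0 of the 10 genes passed.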

Other observations

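Some pathway genes stood out on 1 DN-Clim array and were picked after their values were seen. On DN-Clim replicate 3, where Bmp2 was 1.13 below the WT mean, Sostdc1, a secreted inhibitor of BMP and Wnt signals, was at -1.09 relative to the WT mean and Id2, a BMP responsive inhibitor of differentiation, at -1.14. On DN-Clim replicates 1 and 2 Sostdc1 was at 0.17 and -0.13, and Id2 at -0.24 and 0.35. Other genes of the same 2 lists were above their WT mean on DN-Clim replicate 3. Among them were the inhibitors Lefty2 (0.96) and Cer1 (0.64) and the BMP responsive genes Msx1 (0.34) and Atoh8 (0.30). Of these, Lefty2 (5.53 to 7.21), Cer1 (6.66 to 8.06) and Msx1 (7.47 to 8.05) were dim, below the median of every array. Sostdc1 and Id2 were brighter, with WT means of 9.69 and 9.38. The list medians on DN-Clim replicate 3 were 0.00 for the inhibitors and -0.29 for the BMP responsive genes. Over all probe sets, 28.2% lay below and 39.8% above the WT range there. Tgfb2 was highest on DN-Clim replicate 2. The integrin subunit Itgb8, part of a receptor that activates latent TGF-beta, was at 1.81 on that array. It was at 0.35 and 0.12 on DN-Clim replicates 1 and 3. Every other measured gene of the latency and activation list was below its WT mean on DN-Clim replicate 2. Among them were the integrin subunits Itgav (-0.67) and Itgb6 (-0.49). None of Sostdc1, Id2 and Itgb8 passed with all arrays (limma unadjusted p = 0.282 for Sostdc1, 0.365 for Id2 and 0.111 for Itgb8).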
